A study of Mus musculus with 10 samples.

Results

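B cells carrying the guide labelled sgRNA-P2 were compared with mock B cells, gene by gene, in RNA with poly(A) tails. The comparison takes 4 of the 10 samples of the series, chosen by their labels: 2 columns labelled as replicates of CRISPRi B cells with sgRNA2 (genotype sgRNA-P2) and 2 of CRISPRi B cells labelled Mock. All were primary B cells from mouse spleen. In CRISPR interference (CRISPRi) a guide RNA brings a catalytically dead Cas9, often fused to a repressor, to a promoter and lowers transcription there. The series describes repression of the P1 and P2 promoters of Pou2f1 in B cells, and the question was what follows in the transcriptome when the guide is the one named for P2. B cells with the guide labelled sgRNA-P1 are used below only to set values side by side, from a library of 49066261 reads. The strain, sex and age of the mice, the number of animals, the dead Cas9 effector, how guide and effector reached the cells, whether the mock cells carried a guide, the culture of the cells and the time of treatment were not stated in the labels used here.

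The 2 columns of a group were not separate libraries. Of each gene, the first column held 47.3% of the mock reads and 40.3% of the sgRNA-P2 reads, and the mean chi-square per gene between columns was 0.00259 over 14025 genes in mock and 0.00274 over 13583 genes in sgRNA-P2. Such columns differed by less than the sampling noise of independent libraries. Each pair was added up and treated as 1 sample. The mock library held 33842813 reads and the sgRNA-P2 library 28118839. Levels are given as counts in 1e6 (CPM, reads of a gene per 1e6 scaled reads), scaled by TMM, a factor that levels the bulk of the genes between libraries, and differences as log2 fold changes of sgRNA-P2 over mock. With 1 library per group there is no replicate check and no test. The brackets hold exact 95% intervals that cover counting error only, and they say nothing of how far 2 mock libraries would differ. Genes were called by size instead: 1.5-fold or more at 5 CPM or more in the higher library, and 1.2-fold or more at 20 CPM or more.

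Oct-1, the product of Pou2f1, is a transcription factor of the POU family that is present in most cell types and binds the octamer motif, ATGCAAAT. B cells also hold Oct-2, encoded by Pou2f2, and the coactivator OCA-B, encoded by Pou2af1, which joins Oct-1 or Oct-2 on octamers in immunoglobulin promoters. Octamers were first studied in immunoglobulin and histone genes, and Oct-1 has also been tied to metabolic and stress-response genes.

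RefSeq lists several starts for Pou2f1. Their upstream sequences are shown because the guides were aimed at promoters of this gene. The labels do not say which start is P1 and which is P2, and the guide sequences were not used here. The 250 bases before each of 3 starts, on the minus strand of GRCm38.p6, contained no octamer on either strand and so carry no capitals.
Pou2f1 start at the 5′ end of the gene, chr1:166002635-166002884: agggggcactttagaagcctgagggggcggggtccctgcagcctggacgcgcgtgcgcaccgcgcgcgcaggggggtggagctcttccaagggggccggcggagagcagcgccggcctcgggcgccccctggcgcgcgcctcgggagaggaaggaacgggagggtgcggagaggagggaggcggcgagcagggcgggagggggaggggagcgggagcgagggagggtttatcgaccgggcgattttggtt
Pou2f1 second start, chr1:165953072-165953321: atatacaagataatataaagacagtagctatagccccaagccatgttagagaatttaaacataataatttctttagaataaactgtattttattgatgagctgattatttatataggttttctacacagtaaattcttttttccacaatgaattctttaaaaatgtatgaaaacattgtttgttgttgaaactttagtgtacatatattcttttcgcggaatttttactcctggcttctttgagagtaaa
Pou2f1 most 3′ start, chr1:165934949-165935198: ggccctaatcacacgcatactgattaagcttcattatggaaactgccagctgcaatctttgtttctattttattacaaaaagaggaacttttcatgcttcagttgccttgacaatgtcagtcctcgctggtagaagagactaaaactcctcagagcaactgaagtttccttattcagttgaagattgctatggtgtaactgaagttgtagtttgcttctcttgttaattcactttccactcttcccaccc
The stretch before the 5′ start has a GC content of 74.4% with 29 CpG dinucleotides. Before the second start it is 26.8% and before the most 3′ start 40%, with 2 CpG each. The 5′ start therefore lies in a CpG-rich stretch and the other two do not.

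The targeted gene was lower in the sgRNA-P2 library. Pou2f1 (chromosome 1, positions 165692723 to 165830247, minus strand, in the deposited table, for which the submitters' processing notes name mm39) had 2510 and 2790 reads in the mock columns and 980 and 1451 in the sgRNA-P2 columns. Scaled to depth, its level was 157 CPM [151, 163] in mock and 86.5 CPM [81.6, 91.4] with sgRNA-P2. The sgRNA-P2 library thus kept 55.2% [51.5, 59.1] of the mock level, a log2 fold change of -0.86 [-0.96, -0.76]. Among the 7184 genes at 20 CPM or more, Pou2f1 had the lowest log2 fold change. Among the 10061 genes at 5 CPM or more, 3 genes lay below it, all at under 20 CPM. Of the exonic bases counted for Pou2f1, 18.1% are shared with Cd247 on the opposite strand. That gene, whose product is a signalling chain of T cell receptors, stood at 0.414 CPM in mock and 0.391 CPM with sgRNA-P2, so its reads could have added little to the Pou2f1 count.

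The gene-level count does not separate transcripts from the alternative promoters. Which starts the remaining reads came from was not analysed here. With sgRNA-P1 the Pou2f1 level was 91.1 CPM [87.3, 94.9], which is 58.1% of the same mock library. Taken directly, the sgRNA-P2 library differed from the sgRNA-P1 library by a log2 fold change of -0.07 [-0.18, 0.03] for this gene, an interval that holds 0. Both guides share the mock library, so their folds against it are not independent.

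The relatives of Pou2f1 stood at about the same level in both libraries. Pou2f2, encoding Oct-2, was at 338 CPM in mock and 347 CPM with sgRNA-P2, a log2 fold change of 0.04 [-0.02, 0.10]. Pou2af1, encoding OCA-B, was at 621 CPM in both, a log2 fold change of 0.00 [-0.04, 0.04]. Pou2f3, an Oct factor of epithelial tuft cells, had no read in either library. At the floor of 3 reads the level would be 0.0887 CPM in mock and 0.107 CPM with sgRNA-P2. Set per kilobase of exon, Pou2f1 in mock had 9.44 CPM, Pou2f2 41 and Pou2af1 244. With sgRNA-P2 they had 5.21, 42.2 and 244 CPM per kilobase. The order of the 3 levels was the same in both libraries, and the gap between Pou2f2 and Pou2f1 was wider with sgRNA-P2.

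Genes beside Pou2f1 did not share its difference. The deposited coordinates place 45 genes within 500 kb of it, of which 6 reached 5 CPM. Rcsd1, which encodes the actin-capping regulator CapZIP and is the most expressed of them, stood at 423 CPM in mock and 416 CPM with sgRNA-P2, a log2 fold change of -0.02 [-0.07, 0.03]. Dcaf6 had -0.04 [-0.24, 0.15] and Creg1, the closest at 5 CPM on the side of the gene's 3′ end, had 0.12 [-0.19, 0.42]. Mpc2, a subunit of the mitochondrial pyruvate carrier, had 0.08 [-0.17, 0.32]. On the other side, Tada1 had 0.06 [-0.23, 0.35] and Pogk 0.03 [-0.28, 0.33]. All 6 intervals hold 0, and for Creg1 and Pogk they are wide.

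**Figure D1:**
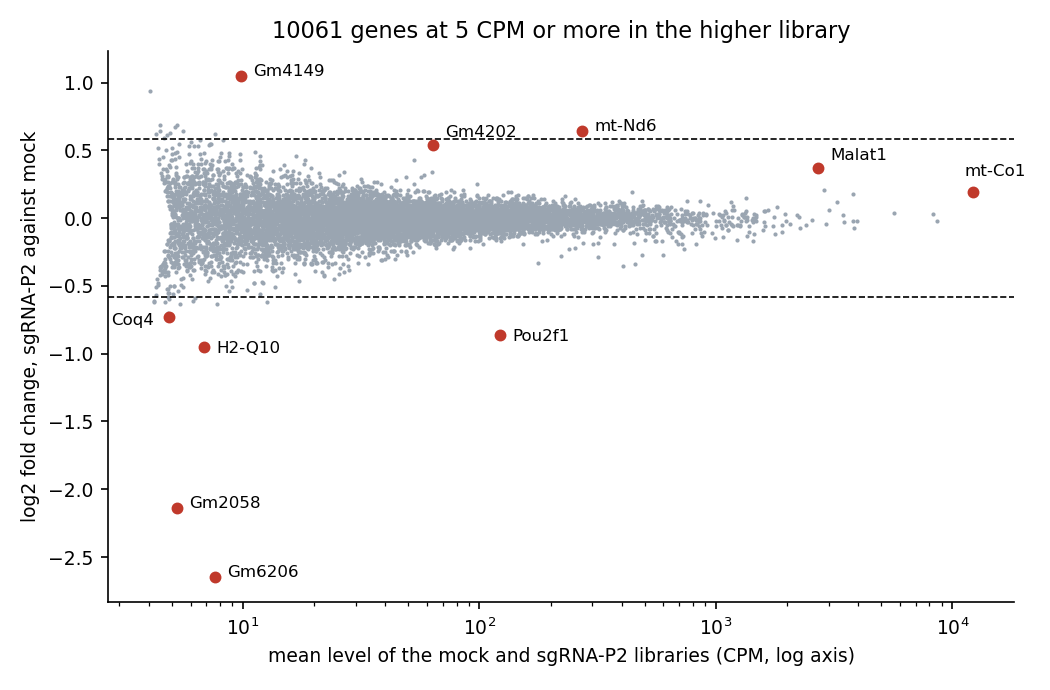
Each point is 1 of the 10061 genes at 5 CPM or more, with its mean level in the mock and sgRNA-P2 libraries on the horizontal log axis (CPM) and its log2 fold change on the vertical axis. Dashed lines mark 1.5-fold, and the red points are named genes. Pou2f1 lies alone at -0.86 among genes of its level, and the other genes below -0.9 have low counts.

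Few genes differed by much. Of the 10061 genes, 79.9% lay within 1.1-fold, 94.4% within 1.2-fold and 99.7% within 1.5-fold. In all, 28 genes (0.278%) were past 1.5-fold, 15 of them lower (0.149%) and 13 higher (0.129%). Of these 28 genes, 23 were under 10 CPM in both libraries, where the median counting interval is 0.81 wide on the log2 scale and the middle 90% of genes spans -0.37 to 0.36. Among 95 genes at 1000 CPM or more the same span is -0.13 to 0.13. At 20 CPM or more, 2 of the 7184 genes (0.0278%) were past 1.5-fold: Pou2f1 on the lower side and mt-Nd6 on the higher (0.0139% each). The counting interval excluded 0 for 971 of them (13.5%), 437 higher (6.08%) and 534 lower (7.43%). At 5 CPM or more it excluded 0 for 1163 of the 10061 (11.6%), 522 higher (5.19%) and 641 lower (6.37%).

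Copies and overlaps touch many of the 28. Of these genes, 12 are predicted genes or pseudogenes, and of the 26 whose sequence could be read from the reference, 9 share 50% or more of their 31-base words with another gene. Gm6206, a predicted gene on chromosome X, had the lowest log2 fold change, -2.65 [-3.28, -2.11], with 13.1 CPM in mock, 2.06 with sgRNA-P2 and 9.63 with sgRNA-P1. It shares 92.9% of its words with Cop1, an E3 ubiquitin ligase gene that stood at 67.3 CPM in mock and 76.8 with sgRNA-P2. The next lowest, Gm2058, had 8.57 and 1.92 CPM, a log2 fold change of -2.14 [-2.81, -1.56], and shares 94.3% with Gm26526. The highest was Gm4149 at 6.36 and 13.2 CPM, a log2 fold change of 1.05 [0.71, 1.41]. All its words occur in other genes, 87.4% of them in Rpl37a, a ribosomal protein gene that had 510 CPM in mock and 402 with sgRNA-P2. Gm12751 had 0.67 [0.20, 1.16], and its sequence lies wholly within that of Polr1d, at -0.25. Tes3-ps had 0.94 [0.40, 1.52] and shares 68.3% with Dcun1d1, at 0.01. Where the parent was measured, copy and parent did not differ alike, and the sources do not say how reads that fit several places were assigned, so the copies are uncertain.

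Lower genes with names of their own were few. H2-Q10, which encodes a secreted class I molecule best known from liver, had 9.05 CPM in mock and 4.66 with sgRNA-P2, a log2 fold change of -0.95 [-1.41, -0.54], but shares 30.3% of its words with other genes, H2-Q7 the foremost. Coq4, needed to assemble the coenzyme Q synthesis complex, had 6.09 and 3.66 CPM, a log2 fold change of -0.73 [-1.26, -0.25], and 27.1% of its exonic bases overlap Trub2 on the opposite strand, itself at -0.18. Tmem256, a small membrane protein gene, had 9.46 and 6.12 CPM, a log2 fold change of -0.63 [-1.02, -0.24], and no shared words. Ighv14-2, a heavy chain variable segment, had 15.3 and 9.96 CPM, -0.62 [-0.93, -0.32]. The others were Marchf9, a ubiquitin ligase gene, at -0.62, Ccdc138 at -0.62, Hcn3, a pacemaker channel gene, at -0.61, Prox2, a homeobox gene, at -0.60 and Slx1b, a structure-specific nuclease gene, at -0.59. Just inside 1.5-fold lay Col7a1, a collagen gene, and Rnf135, a ubiquitin ligase gene, both at -0.56. H2-Q10, Coq4, Marchf9, Ccdc138, Hcn3, Prox2, Slx1b and Col7a1 passed the 5 CPM filter only through the mock library.

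The higher genes were as sparse. Hic2, a transcriptional repressor gene, had 4.02 CPM in mock and 6.51 with sgRNA-P2, a log2 fold change of 0.69 [0.22, 1.16], and shares 49.8% of its words with other genes. Diras2, a small GTPase gene, had 4.35 and 6.79 CPM, 0.64 [0.19, 1.11]. Zfp174 had 0.64 [0.12, 1.15], Dcbld1 0.61 [0.12, 1.10] and the variable segment Ighv5-12 0.59 [0.10, 1.10]. The lower bounds of these genes lie between 0.10 and 0.22. All were under 5 CPM in mock and passed the filter only through the sgRNA-P2 library. They were picked for large fold changes, so bounds above 0 are no support for a difference. Just short of 1.5-fold were Fv1, a retroviral restriction gene, at 0.58, Pira2, a paired immunoglobulin-like receptor gene with 96.7% of its words in other genes, at 0.56, Zfp719 at 0.55, Tmem67 at 0.53, Lgals3, encoding galectin-3, at 0.52 and Aph1b, a gamma-secretase subunit gene, at 0.50. The sgRNA-P1 log2 fold changes of these 11 genes, against the same mock, ran from 0.07 for Ighv5-12 and 0.16 for Dcbld1 to 0.62 for Diras2 and Tmem67. Directly, sgRNA-P2 stood above sgRNA-P1 by 0.53 [0.07, 0.97] for Ighv5-12 and 0.46 [0.01, 0.88] for Dcbld1.

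At 20 CPM or more, 91 of the 7184 genes (1.27%) differed by 1.2-fold or more, 62 lower (0.863%) and 29 higher (0.404%). After Pou2f1, the lowest was Micos13, which encodes a subunit of the complex that shapes mitochondrial cristae. It had 28.1 CPM in mock, 20.6 with sgRNA-P2 and 21.7 with sgRNA-P1, and the sgRNA-P2 log2 fold change was -0.45 [-0.67, -0.24]. Next came Ifrd2, a translation inhibitor gene, at -0.43, and the mitochondrial ribosomal protein gene Mrpl2 at -0.42. The secretory cargo receptor gene Mcfd2 had -0.41 and Sec61g, a translocon subunit gene, -0.40. Ifrd2 overlaps Lsmem2 over 28.7% of its exonic bases, but Lsmem2 was at only 0.148 CPM in mock. The noncoding locus Gt(ROSA)26Sor had 30.5 CPM in mock, 23.1 with sgRNA-P2 and 28.1 with sgRNA-P1, and the sgRNA-P2 log2 fold change was -0.40 [-0.60, -0.19]. This locus is widely used as a landing site for transgenes. Zfp213 had -0.39, Cox17, a copper chaperone gene for cytochrome oxidase, -0.38, and Spint2, a serine protease inhibitor gene, -0.37. Hes6, a helix-loop-helix factor gene, and Vsir, which encodes the checkpoint receptor VISTA, had -0.31 and -0.35. Of these genes, Ifrd2, Mrpl2, Sec61g and Zfp213 passed 20 CPM only through the mock library.

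On the higher side at this level were mt-Nd6 and 3 other mitochondrial mRNAs, which are described below, and Malat1. Counts of the 3 others cannot be read as mRNA levels, because nearly all their sequence is shared with other genes. Malat1 is a long noncoding RNA retained in the nucleus. It had 2360 CPM in mock, 3050 with sgRNA-P2 and 2860 with sgRNA-P1, and the sgRNA-P2 log2 fold change was 0.37 [0.35, 0.39]. N6amt1, a methyltransferase gene, had 15.6 and 20.6 CPM, 0.40 [0.16, 0.65]. Dap, a gene tied to autophagy control, had 0.37 [0.13, 0.60] with sgRNA-P2 and 0.05 with sgRNA-P1. Zfp677 had 0.34, Abhd18 0.33, Simc1 0.32 and Carf, a calcium-responsive transcription factor gene, 0.30. Of these genes, N6amt1, Dap, Abhd18 and Carf passed 20 CPM only through the sgRNA-P2 library. Slc25a23, a mitochondrial ATP-Mg/phosphate carrier gene, had 0.28 [0.07, 0.50]. The predicted gene Gm4202 had 51.8 CPM in mock and 75.4 with sgRNA-P2, a log2 fold change of 0.54 [0.41, 0.67], with -0.87 in the sgRNA-P1 library, and 96.3% of its words lie in Ywhaz, a 14-3-3 protein gene that stood at 400 and 399 CPM.

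The B cell genes were close to level. Of the 17 genes of the B cell receptor and its coreceptors, 16 reached 5 CPM, 9 higher and 7 lower, with a median log2 fold change of 0.03 and a range of -0.10 to 0.10. None was past 1.2-fold, beside 1.27% of all genes at 20 CPM, so 0 of 16 is near the share of all genes. Over all genes at 5 CPM, 4867 were higher and 5194 lower, with a median of 0.00. The signalling chains Cd79a and Cd79b had 1490 and 1270 CPM in mock and 1460 and 1220 with sgRNA-P2. Cr2 (CD21), a complement receptor and coreceptor, had 1310 and 1360 CPM, a log2 fold change of 0.05 [0.02, 0.07], and Cd81 had 94.5 and 88.3 CPM, -0.10 [-0.21, 0.01].

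Coreceptors that restrain the receptor were level too, or slightly higher. Fcgr2b, the inhibitory Fc receptor, had 219 CPM in mock and 234 with sgRNA-P2, a log2 fold change of 0.10 [0.03, 0.17], the largest among receptors and coreceptors on the higher side. Cd22, a sialic acid-binding inhibitor, had 1590 and 1640 CPM, 0.05 [0.02, 0.07]. Siglecg had 0.03 and Cd72 -0.03, with intervals that hold 0. Ms4a1 (CD20) had 1570 and 1630 CPM, 0.05 [0.03, 0.08], and Cd24a 654 and 683 CPM, 0.06 [0.02, 0.10].

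Downstream signalling followed the same pattern. Of 26 measured signalling genes, 15 were higher and 11 lower, with a median of 0.02. None passed 1.2-fold, again near the 1.27% of all genes at 20 CPM. Btk, the kinase whose loss stops B cell development in people with agammaglobulinaemia and a gene with an octamer site, had 285 CPM in mock and 304 with sgRNA-P2, a log2 fold change of 0.10 [0.04, 0.16]. Rasgrp3, which activates Ras downstream of the receptor, had 352 and 376 CPM, 0.09 [0.04, 0.15]. Blk, a Src-family kinase of B cells, was on the other side with 673 and 637 CPM, -0.08 [-0.12, -0.04]. Malt1, a paracaspase of the NF-kB pathway, had 481 and 499 CPM, 0.05 [0.01, 0.10].

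Transcription factors of the lineage had a median of 0.02 over 26 measured genes, 15 higher and 11 lower. Mef2c, needed for B cell responses, had 695 CPM in mock and 727 with sgRNA-P2, a log2 fold change of 0.07 [0.03, 0.10]. Foxp1, a forkhead factor needed for B cell development, had 504 and 531 CPM, 0.07 [0.03, 0.12]. Elf1, an ETS factor, had 0.06 [0.00, 0.11]. The lowest was Bhlhe41, a factor of B-1 cells, with 24.8 and 22.7 CPM, -0.13 [-0.35, 0.08].

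**Figure D2:**
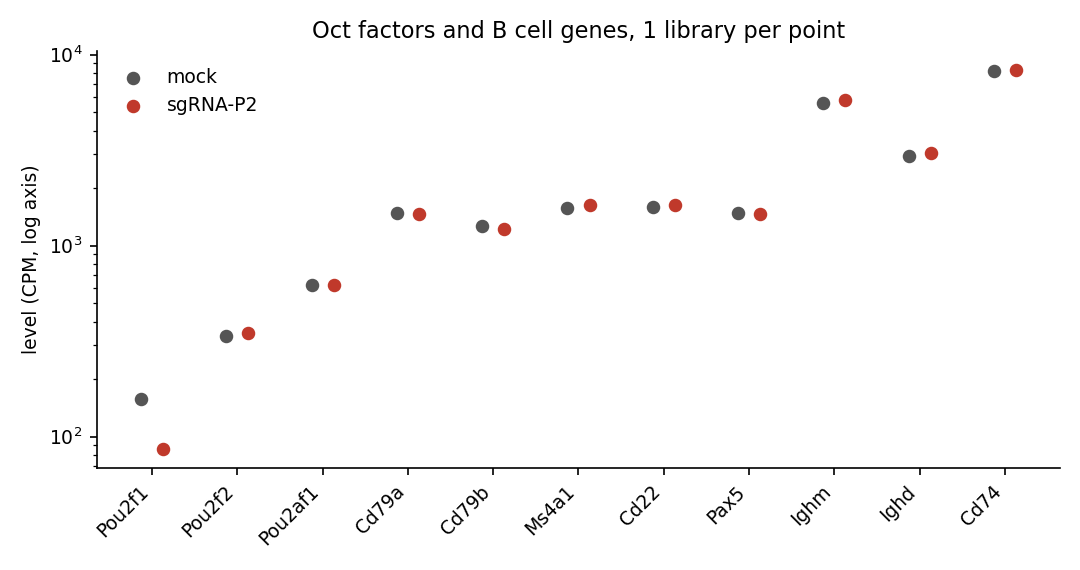
Level in CPM (log axis) of the Oct factors and of B cell genes, 1 library per point, grey for mock and red for sgRNA-P2. Pou2f1 is the one gene shown whose points lie clearly apart, at 157 and 86.5 CPM, while Ms4a1 stands at 1570 and 1630 CPM.

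Genes of B cell subsets and of activation were also near level. The marginal zone list had 13 measured genes, 9 higher and 4 lower, with a median of 0.03. Within it S1pr3, a sphingosine phosphate receptor that holds marginal zone cells in place, had 42 CPM in mock and 47.8 with sgRNA-P2, a log2 fold change of 0.18 [0.03, 0.34], and Plac8 had 232 and 212 CPM, -0.13 [-0.20, -0.06]. The follicular list had 11 genes, 3 higher and 8 lower, with a median of -0.02. Ccr7, the receptor for homing to the T zone, had 421 and 403 CPM, -0.06 [-0.11, -0.01].

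Of 13 measured activation and germinal centre genes, 10 were higher and 3 lower, with a median of 0.04. Egr3 and Egr1, early growth response factors, had 0.07 [0.01, 0.14] and 0.05 [0.01, 0.10]. Bcl6, the master regulator of the germinal centre, had 101 and 105 CPM, 0.05 [-0.05, 0.15]. Plasma cell genes split 6 higher and 7 lower of 13. Sdc1 (CD138), a surface mark of plasma cells, had 19.7 CPM in mock and 16.5 with sgRNA-P2, a log2 fold change of -0.26 [-0.50, -0.01], while Prdm1, which encodes Blimp-1, had 5.03 and 5.19 CPM, 0.05 [-0.42, 0.52]. In bulk samples, fewer cells of a type and less RNA per cell cannot be told apart.

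Immunoglobulin genes took 1.39% of reads in mock and 1.41% with sgRNA-P2. The mu constant gene Ighm had 5610 CPM in mock and 5770 with sgRNA-P2, a log2 fold change of 0.04 [0.03, 0.05]. Ighd, the delta gene coexpressed with mu in naive B cells, had 2950 and 3070 CPM, 0.06 [0.04, 0.07]. The kappa gene Igkc had 1770 and 1870 CPM, 0.08 [0.05, 0.10], and Iglc3, a lambda gene, 105 and 96.1 CPM, -0.13 [-0.23, -0.03]. Of the switched isotypes, Ighg1 had -0.16 [-0.50, 0.19] and Ighg2b -0.08 [-0.24, 0.09].

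Among variable segments, 63 of 183 Ighv genes reached 5 CPM, 34 higher and 29 lower, with a median of 0.01 and a range of -0.62 to 0.59. Both ends, Ighv14-2 and Ighv5-12, were past 1.5-fold, 1 lower and 1 higher, beside 0.149% and 0.129% of all genes at 5 CPM. The median mock level of the Ighv genes was 9.34 CPM, and 23 of the 28 genes past 1.5-fold were under 10 CPM. Ighv1-80 had 9.34 CPM in mock and 13.1 with sgRNA-P2, a log2 fold change of 0.49 [0.17, 0.80], and Ighv5-6 had -0.38 [-0.67, -0.08]. Of 160 Igkv genes 66 were measured, 25 higher and 41 lower, with a median of -0.04. Igkv12-46 had 29.7 and 23.4 CPM, -0.34 [-0.55, -0.14], and Igkv3-10 21.9 and 17.4 CPM, -0.34 [-0.58, -0.10]. Segments share long stretches of sequence, 58.6% of the 31-base words in Ighv14-2 and 64.7% in Igkv3-10, and each marks the clones that use it, so these values also carry the make-up of the cells in each library.

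A list of 15 genes with described octamer sites, all at 5 CPM or more, had 8 higher and 7 lower and a median of 0.00. Beyond the immunoglobulin, Btk, Ms4a1 and Cr2 values given above, Gadd45a, a DNA damage gene that Oct-1 binds, had 23.5 CPM in mock and 20 with sgRNA-P2, a log2 fold change of -0.23 [-0.46, -0.01]. Cd36, a scavenger receptor described as an Oct-2 target in B cells, had 72.6 and 77 CPM, 0.09 [-0.03, 0.21]. Spib, an ETS factor gene, had -0.04 [-0.08, 0.00].

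The octamer was also sought in RefSeq promoters, 250 bases before to 50 bases after each start, as ATGCAAAT or its reverse complement ATTTGCAT. Of the 10061 genes at 5 CPM, 7628 (75.8%) had such a window, and 125 of these (1.64%) held the motif. Over all windows of the table the share was 1.74% of 32851. Among genes past 1.5-fold, 1 of 7 lower genes with a window held it, Prox2, and 0 of 3 higher genes. At 20 CPM and 1.2-fold, 1 of 43 lower genes (2.33%) held it, Sec61g, and 1 of 17 higher genes (5.88%), Zswim6. The median log2 fold change was -0.01 in genes with the octamer and 0.00 in the 7503 without. The 3 matches are shown because they are all those found among called genes, 30 bases each on the minus strand of GRCm38.p6, with the octamer in capitals.
Prox2, chr12:85106489-85106518: cgggggctccaATTTGCATattcataggcc
Sec61g, chr11:16508465-16508494: tcagtgacattATTTGCATgcgcagcgggg
Zswim6, chr13:107890246-107890275: tcagcccagtgATTTGCATaggccccgccc
All 3 carry the motif in the ATTTGCAT orientation. A match of letters does not show that a factor binds there.

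Mitochondrially encoded mRNAs were the group furthest to the higher side. The mitochondrial genome encodes 13 subunits of the respiratory chain, and 10 of these mRNAs reached 5 CPM, 9 higher and 1 lower, and their median log2 fold change was 0.20. Of these, mt-Co1, mt-Nd4, mt-Atp6, mt-Co2 and mt-Co3 share 62.8% or more of their 31-base words with other genes. The split and the median thus rest partly on uncertain counts. Among the rest, mt-Nd1, mt-Nd5, mt-Cytb and mt-Nd6 were higher and mt-Nd2 lower. Reads of all mitochondrial genes together were 2.54% of the mock library, 2.85% of the sgRNA-P2 library and 3.79% of the sgRNA-P1 library. The most abundant, mt-Co1, a catalytic subunit of cytochrome oxidase, had 11400 CPM in mock and 13000 with sgRNA-P2, a log2 fold change of 0.19 [0.18, 0.20]. Next, mt-Cytb of complex III had 3550 and 4020 CPM, 0.18 [0.17, 0.20]. The complex I mRNAs mt-Nd1, mt-Nd4 and mt-Nd5 had 0.12 [0.10, 0.14], 0.15 [0.12, 0.18] and 0.21 [0.19, 0.23].

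mt-Nd6 and mt-Nd2 stood apart from the other mitochondrial mRNAs. mt-Nd6, the one mRNA encoded on the light strand, had 213 CPM in mock, 332 with sgRNA-P2 and 560 with sgRNA-P1, and the sgRNA-P2 log2 fold change was 0.64 [0.57, 0.70]. The strand setting of the counting is not given, so the mt-Nd6 count may include reads from the other strand. mt-Nd2 had 1780 CPM in mock, 1710 with sgRNA-P2 and 2990 with sgRNA-P1. Its log2 fold change was -0.06 [-0.08, -0.03] with sgRNA-P2 and 0.75 with sgRNA-P1, and the direct difference between the guides was -0.81 [-0.83, -0.79]. For mt-Nd6 that direct difference was -0.76 [-0.81, -0.71], for mt-Cytb -0.55 [-0.56, -0.54] and for mt-Co1 -0.33 [-0.34, -0.32]. All 10 mRNAs, those of uncertain count included, were lower with sgRNA-P2 than with sgRNA-P1, with a median of -0.48.

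The 3 mRNAs mt-Atp6, mt-Co2 and mt-Co3 had 45.1, 51.9 and 28.8 CPM in mock and log2 fold changes of 0.43 [0.29, 0.57], 0.32 [0.19, 0.46] and 0.27 [0.09, 0.46]. Of their 31-base words, 99.5%, 100% and 99.9% also lie in other genes. The share is 63.9% for mt-Co1 and 62.8% for mt-Nd4, 16.8% or less for mt-Nd5, mt-Nd2, mt-Nd6 and mt-Cytb, and 0% for mt-Nd1. Counts of the first 3 can therefore not be read as levels of the mRNA, and those of mt-Co1 and mt-Nd4 are uncertain. Gm10925, which shares its sequence with mt-Atp6, had 50.8 and 62.5 CPM. mt-Nd3, mt-Nd4l and mt-Atp8 did not reach 5 CPM, and 98.1% of the words of mt-Nd3 and 98.9% of those of mt-Nd4l lie in other genes. The ribosomal RNAs mt-Rnr1 and mt-Rnr2, which carry short tails, had 0.11 [0.04, 0.19] and 0.06 [0.03, 0.09].

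**Figure D3:**
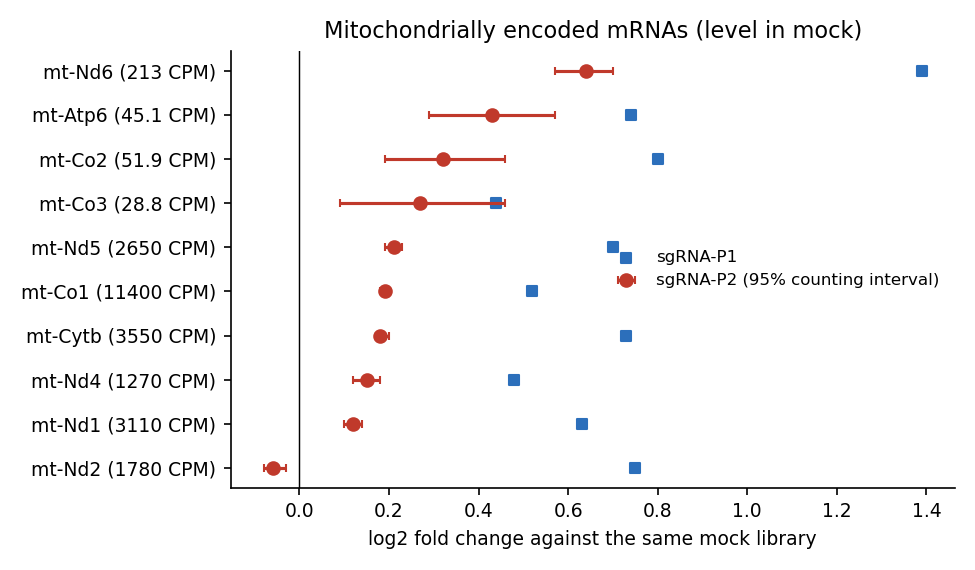
Log2 fold change against mock of the 10 mitochondrially encoded mRNAs at 5 CPM or more, red circles with 95% counting intervals for sgRNA-P2 and blue squares for sgRNA-P1, both against the same mock library, with the mock level in brackets. mt-Nd6 is highest for both guides, at 0.64 and 1.39, and mt-Nd2 lies at -0.06 for sgRNA-P2 and 0.75 for sgRNA-P1. mt-Co1, mt-Nd4, mt-Atp6, mt-Co2 and mt-Co3 share most of their sequence with other genes, so their counts are uncertain.

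Nuclear genes that copy and maintain the mitochondrial genome or process its RNA had a median of 0.05 over 28 measured genes, 16 higher and 12 lower, with 5 intervals above 0 and 1 below, beside 5.19% and 6.37% of all genes. With a smooth trend on GC content and length subtracted, the median of this list was 0.01. Ppargc1b, a coactivator of mitochondrial biogenesis, had 8.16 CPM in mock and 11.3 with sgRNA-P2, a log2 fold change of 0.47 [0.13, 0.81]. Mterf2, of the transcription termination factor family, had 10.4 and 13.3 CPM, 0.36 [0.06, 0.67]. Pnpt1, a mitochondrial polynucleotide phosphorylase, had 65.1 and 72.2 CPM, 0.15 [0.03, 0.28]. Polg2, the accessory subunit of the mitochondrial DNA polymerase, had 0.17 [0.00, 0.34], while Tefm, a transcription elongation factor, had -0.21 [-0.63, 0.20].

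Nuclear-encoded subunits of the same chain lay on the lower side. Complex I, which passes electrons from NADH to coenzyme Q, had 37 measured subunits, 31 lower and 6 higher, and their median was -0.10 on the log2 scale. Ndufs6 had 13.1 CPM in mock and 10 with sgRNA-P2, -0.38 [-0.70, -0.07]. Ndufa2 had 28.8 and 23.8 CPM, -0.28 [-0.48, -0.07], and Ndufa6 47 and 41 CPM, -0.20 [-0.35, -0.04]. Of the 37 intervals, 7 lay below 0 and 0 above, beside 6.37% and 5.19% of all genes. Among 15 measured assembly factors of complex I, 9 were lower and 6 higher, a split near that of all genes, of which 51.6% were lower. Acad9 had -0.20 [-0.36, -0.04], Foxred1 -0.17 [-0.32, -0.02] and Ecsit 0.16 [-0.10, 0.42].

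Complex II, whose subunits also serve the citrate cycle, was level at a median of 0.01 over 4 genes. Complex III had 8 of 9 genes lower and a median of -0.07, with Uqcrh at 87 and 76.8 CPM, -0.18 [-0.30, -0.07]. Complex IV, cytochrome oxidase, had 9 of 12 lower and a median of -0.11. There Cox6b1 had 47.4 and 40 CPM, -0.24 [-0.40, -0.09], and Cox4i1 122 and 110 CPM, -0.14 [-0.24, -0.05]. Complex V, the ATP synthase, had 15 of 17 lower and a median of -0.07, with Atp5pd at 63 and 56.3 CPM, -0.16 [-0.30, -0.03]. The sgRNA-P1 medians against the same mock were -0.22 for complex I, -0.23 for complex III, -0.20 for complex IV and -0.13 for complex V. Directly, sgRNA-P2 stood above sgRNA-P1 by a median of 0.12, 0.11, 0.08 and 0.06.

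Coenzyme Q carries electrons from complexes I and II to complex III. The list of its synthesis genes, which also holds the complex IV assembly gene Coa6, had 14 of 15 members at 5 CPM, 7 higher and 7 lower, with a median of -0.01. Coq4 was the one member past 1.5-fold, at -0.73, beside 0.278% of all genes at 5 CPM. Coq8b, an atypical kinase gene of the pathway, had 21.5 CPM in mock and 17.1 with sgRNA-P2, a log2 fold change of -0.33 [-0.58, -0.10]. The hydroxylase gene Coq6 had 23.1 and 19.3 CPM, -0.26 [-0.49, -0.03], and Coq2, the prenyltransferase, 75.6 and 68.6 CPM, -0.14 [-0.26, -0.02]. On the other side Coq3, a methyltransferase, had 0.31 [-0.10, 0.72] and Coq10b, a coenzyme Q-binding protein, 0.25 [-0.04, 0.54], both with intervals that hold 0. Coq9 had 0.01, Coq8a -0.03 and Coq5 -0.04. The members thus spread widely about a median near 0.

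Other metabolic lists were near level. Glycolysis had a median of -0.02 over 18 genes, 7 higher and 11 lower. There Pkm, pyruvate kinase, had 224 and 212 CPM, -0.08 [-0.15, -0.01], and Pfkp, a phosphofructokinase, 107 and 116 CPM, 0.11 [0.01, 0.21]. The citrate cycle had a median of -0.01 over 27 genes, with Idh3g at -0.12 [-0.21, -0.02]. Mitochondrial carriers of the Slc25 family had a median of -0.01 over 33 genes, with Slc25a51, an NAD carrier, at 69.4 and 60.3 CPM, -0.20 [-0.33, -0.08]. Cholesterol synthesis had a median of -0.02 over 21 genes and no interval away from 0. That is near the share of all genes at 5 CPM, of which 11.6% had an interval away from 0.

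The cytosolic ribosomal protein genes lay on the lower side and had the most intervals below 0 of the lists. Of 87 genes 81 reached 5 CPM, 77 lower and 4 higher, and their median was -0.11 on the log2 scale. The interval lay below 0 for 67 and above 0 for 0 of the 81, beside 6.37% and 5.19% of all genes at 5 CPM. That count depends on read depth. The median mock level was 584 CPM for these genes and 40.4 CPM for all genes. The median counting interval was 0.12 wide at 200 to 1000 CPM and 0.81 wide at 5 to 10 CPM. The shares over all genes are therefore not those of genes at this level. Complex IV had the same median of -0.11 with 3 of 12 intervals below 0. Of the 78 at 20 CPM, 7 were past 1.2-fold, all lower, beside 0.863% lower and 0.404% higher of all genes at 20 CPM. The summed level of the ribosomal protein genes was 51300 CPM in mock and 47310 with sgRNA-P2. They took 5.13%, 4.73% and 4.37% of reads in mock, sgRNA-P2 and sgRNA-P1. Rps29, of the small subunit, had 454 CPM in mock and 356 with sgRNA-P2, a log2 fold change of -0.35 [-0.40, -0.30]. The large subunit genes Rpl37a and Rpl38 had 510 and 198 CPM in mock and 402 and 157 with sgRNA-P2, -0.34 and -0.33. Rpl39 had -0.29, Rps21 -0.28, and Rplp2 and Rps2 -0.27 each.

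The exonic length of these 7 genes runs from 542 bases in Rpl38 to 2072 in Rplp2. Other genes hold 9.85% of the 31-base words of Rpl39, 21.3% of Rps29, 28.5% of Rpl37a and 48.8% of Rps2. Rpl4, also of the large subunit, had 2080 and 2020 CPM, -0.04 [-0.06, -0.02]. Against sgRNA-P1 the ribosomal protein genes stood higher with sgRNA-P2 by a median of 0.11, and the sgRNA-P1 median against mock was -0.22. The sgRNA-P2 medians of the ribosomal protein genes, of the mitochondrial mRNAs and of complexes I, III, IV and V thus all lay between 0, the mock level, and the sgRNA-P1 median. Both medians are against the same mock library, so they are not independent. The mitochondrial median rests partly on uncertain counts, and mt-Nd2 lay outside that range. Over all genes, the median differences at the ends of GC content and length were also smaller with sgRNA-P2, as given below.

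Translation factors, which act with the ribosome, had a median of -0.02 over 39 genes, 16 higher and 23 lower. Eif6, which keeps the large subunit from joining early, had 33.9 CPM in mock and 27.9 with sgRNA-P2, a log2 fold change of -0.28 [-0.47, -0.09]. It overlaps the predicted gene Gm16098 over 28.8% of its bases, but Gm16098 was at 0 CPM in both libraries. Eif1, Eef1b2 and Eef1g had -0.10, -0.09 and -0.08 with intervals below 0. Pabpc1, the cytoplasmic poly(A)-binding protein, was on the other side at 1110 and 1210 CPM, 0.12 [0.09, 0.15]. Mitochondrial ribosomal protein genes had a median of -0.03 over 76 genes, 29 higher and 47 lower, with Mrpl55 at 9.93 and 7.01 CPM, -0.50 [-0.89, -0.14]. Aminoacyl-tRNA synthetases of the list had a median of -0.04, 14 of 20 lower, and Lars2, the mitochondrial leucyl enzyme, had 98 and 84.2 CPM, -0.22 [-0.33, -0.11].

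**Figure D4:**
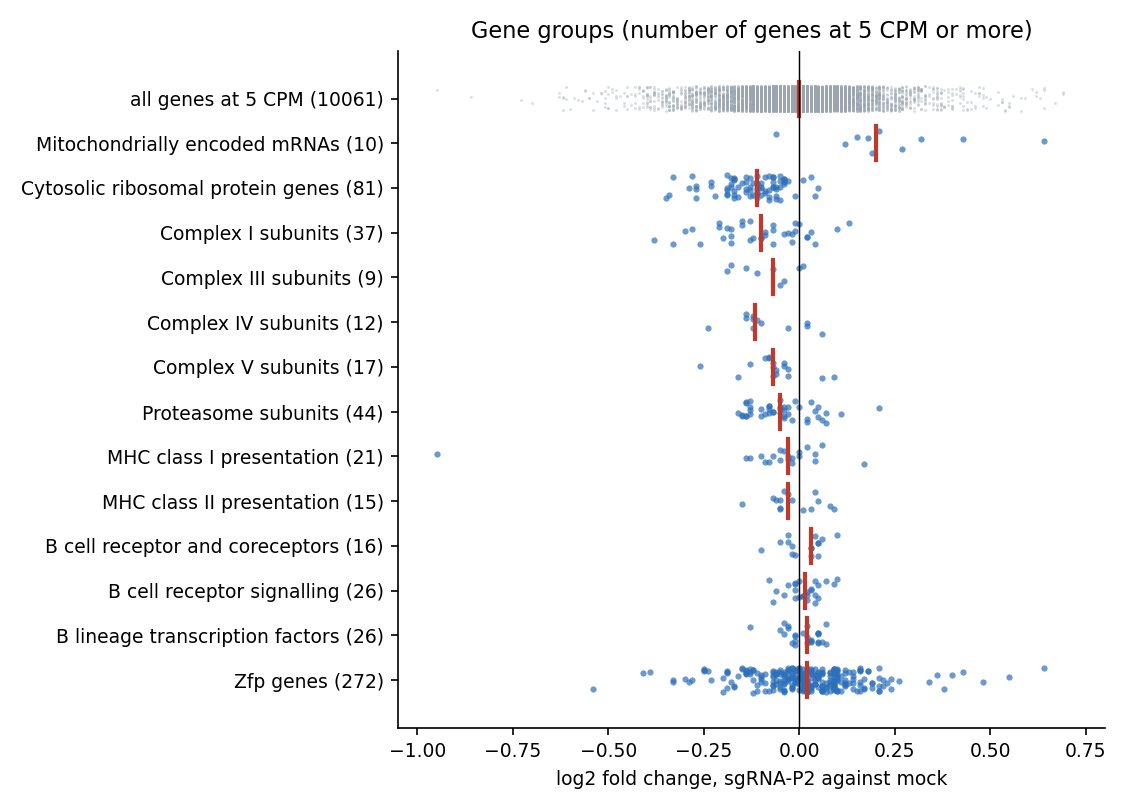
Log2 fold change, sgRNA-P2 against mock, of every gene at 5 CPM or more in the gene groups shown and in all genes, with the median of each group as a red bar. Axis limits leave out 4 genes. The mitochondrially encoded mRNAs lie to the right at a median of 0.20 and the ribosomal protein genes to the left at -0.11, while the B cell receptor and signalling groups straddle 0.

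Antigen presentation genes differed by small amounts. Class II genes, which display peptides to CD4+ T cells, had 15 measured members, 6 higher and 9 lower, and a median of -0.03. Of their intervals 7 lay below 0 and 2 above, beside 6.37% and 5.19% of all genes. Their median mock level was 449 CPM against 40.4 CPM for all genes, so their intervals are narrower than those of most genes. With the GC and length trend subtracted, 8 were lower and 7 higher, at a median of 0.00. H2-Aa had 3940 CPM in mock and 3760 with sgRNA-P2, a log2 fold change of -0.07 [-0.08, -0.05], H2-Eb1 2440 and 2350 CPM, -0.05 [-0.07, -0.03], and H2-DMa, a peptide exchange chaperone, -0.06 [-0.11, 0.00]. Ifi30, a lysosomal thiol reductase, had 122 and 109 CPM, -0.15 [-0.25, -0.06]. H2-Oa, which restrains H2-DM, had 140 and 149 CPM, 0.09 [0.01, 0.18]. Cd74, the invariant chain, had 8200 and 8340 CPM, 0.03 [0.01, 0.04].

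Class I presentation had 21 measured genes, 6 higher and 15 lower, and a median of -0.03. The classical gene H2-K1 had 2320 CPM in mock and 2200 with sgRNA-P2, a log2 fold change of -0.07 [-0.10, -0.05]. The other classical gene, H2-D1, had 1980 and 1840 CPM, -0.10 [-0.12, -0.08]. H2-T22 had 151 and 138 CPM, -0.13 [-0.21, -0.04], and Psmb10, an immunoproteasome subunit, 70.4 and 63.7 CPM, -0.14 [-0.27, -0.02]. H2-Q10, described above, was the one member past 1.5-fold, beside 0.278% of all genes at 5 CPM. Proteasome subunits had a median of -0.05, 33 of 44 lower, with Psmb4 at -0.16 [-0.27, -0.05] and Psma2 at -0.15 [-0.27, -0.04].

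Receptors of the innate and cytokine pathways were level as lists. Toll-like receptors and their partners had 11 higher and 10 lower of 21 and a median of 0.00, with Irf5, a factor downstream of Tlr7 and Tlr9, at 236 and 218 CPM, -0.12 [-0.18, -0.05]. The TNF receptor list had a median of 0.02 over 15 genes, and Tnfrsf13b (TACI), a receptor for BAFF and APRIL, had 311 and 288 CPM, -0.11 [-0.17, -0.05]. NF-kB genes split 10 to 10, with Nfkb2 at 265 and 253 CPM, -0.07 [-0.13, -0.01]. Among 21 cytokine receptor genes the median was -0.01. Il6st (gp130), the shared chain of the IL-6 family, had 23.9 CPM in mock and 19.1 with sgRNA-P2, a log2 fold change of -0.32 [-0.55, -0.10], and Ifngr2, a chain of the interferon gamma receptor, had 80.3 and 91.2 CPM, 0.18 [0.07, 0.30]. The interferon-stimulated genes had a median of 0.01 over 30, 17 higher and 13 lower.

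Migration receptors had 13 of 19 higher and a median of 0.01. Cxcr4, which guides cells to CXCL12, had 395 and 420 CPM, 0.09 [0.04, 0.14], Itga4, an integrin chain, 551 and 585 CPM, 0.09 [0.04, 0.13], and P2ry10, a lysophospholipid receptor, 280 and 261 CPM, -0.10 [-0.16, -0.04]. Immediate early genes had 17 of 26 higher and a median of 0.01. There Zfp36l1 and Zfp36l2, RNA-binding proteins that hasten the decay of AU-rich mRNAs, had 0.10 [0.07, 0.14] and 0.09 [0.04, 0.14], Klf4 had 0.09 [0.02, 0.17], and Btg2 -0.08 [-0.13, -0.03]. The GIMAP family of lymphocyte GTPases had a median of 0.02 over 9 genes.

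Survival, damage and proliferation lists had small medians. The BCL2 family had a median of -0.03 over 13 genes, and Bcl2 itself had 176 and 184 CPM, 0.06 [-0.02, 0.14]. Of 14 measured p53 targets, 10 were lower, with a median of -0.04. Of their intervals 4 lay below 0 and 0 above, beside 6.37% and 5.19% of all genes at 5 CPM. Trp53inp1 had -0.08 [-0.15, -0.01] and Pmaip1 (NOXA) -0.12 [-0.24, 0.00]. Replication and mitosis genes had a median of -0.01 over 17, and every one of their intervals held 0. The interval excluded 0 for 11.6% of all genes at 5 CPM, so 0 of 17 is near that share. Mki67, a mark of cycling cells, had 21.7 and 23.5 CPM, 0.11 [-0.11, 0.33]. Oxidative stress defence genes were lower in 15 of 20, with a median of -0.04. Among them Prdx5, a mitochondrial peroxiredoxin, had 42.3 and 37.5 CPM, -0.18 [-0.34, -0.01]. Keap1, the sensor that holds Nrf2 in check, had 57.5 and 51.8 CPM, -0.15 [-0.29, -0.01].

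Chaperones had a median of 0.00 over 28 genes. Hspa9, the mitochondrial HSP70, and the chaperonin subunit Cct7 had -0.10 [-0.18, -0.03] and -0.12 [-0.20, -0.03], whereas Hsp90b1 of the endoplasmic reticulum had 0.10 [0.04, 0.15]. The ATF4 list had a median of -0.01 over 12 genes, with Phgdh, the first enzyme of serine synthesis, at 69.6 and 61.9 CPM, -0.17 [-0.30, -0.04]. Clock genes had a median of -0.02 over 13.

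Genes of RNA handling were mixed. Splicing factors had a median of -0.01, 16 higher and 20 lower. Genes for 3 core proteins of the spliceosomal particles, Snrpd2, Snrpb and Snrpg, had -0.25 [-0.41, -0.08], -0.15 [-0.24, -0.05] and -0.15 [-0.29, -0.01]. The long noncoding RNA list had 10 of 15 lower and a median of -0.07, in contrast to its member Malat1. Snhg8, a host of a small nucleolar RNA, had 43.8 and 35.6 CPM, -0.30 [-0.47, -0.13], and Snhg1 80 and 71.5 CPM, -0.16 [-0.28, -0.04]. Neat1, the neighbour of Malat1 that builds paraspeckles, had 285 CPM in mock and 267 with sgRNA-P2. DEAD-box helicases had a median of -0.01 over 34 genes, with Ddx55 at 0.18 [0.03, 0.33]. Histone genes, among the first genes in which octamers were described, had 10 of 81 members at 5 CPM in poly(A) RNA, 8 lower and 2 higher, with a median of -0.05. In the 9 of these with a GC value, 5 were lower and 4 higher after the GC and length trend was subtracted, at a median of -0.02. H3f3a had 842 and 797 CPM, -0.08 [-0.12, -0.04].

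The expressed Zfp genes, mostly KRAB zinc finger repressors, had 160 of 272 higher and a median of 0.02. Zfp174 was past 1.5-fold, and Zfp951 and Zfp128 had 0.48 [0.13, 0.84] and 0.43 [0.09, 0.77]. On the lower side Zfp78 had -0.54 [-1.04, -0.08] and Zfp383 -0.41 [-0.78, -0.05]. The sgRNA-P1 median of the same genes was 0.10.

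GC content and length of transcripts moved with the differences. Across the 9857 genes with a GC value, Spearman's rho between GC content and log2 fold change was -0.17, and across all 10061 genes rho with exonic length was 0.16. These are correlations across genes, which are not independent replicates. With genes ordered into 10 equal bins, the median log2 fold change went from 0.03 at the lowest GC to -0.03 at the highest, and from -0.05 in the shortest genes to 0.02 in the longest. With sgRNA-P1 the same medians ran from 0.15 to -0.09 and from -0.10 to 0.07, against the same mock library. The part of these trends in the group differences was measured by subtracting a smooth trend on both properties. The medians then were 0.18 for the mitochondrial mRNAs, -0.09 for the ribosomal protein genes with 75 of 81 lower, -0.07 for complex I, -0.07 for complex IV, and 0.00 for the Zfp genes. Those of smaller medians also shifted, from 0.03 to 0.01 for the B cell receptor and coreceptors, from -0.04 to -0.01 for the Igkv genes, from 0.01 to 0.05 for the Ighv genes and from 0.01 to 0.04 for the immediate early genes. Among single genes, Cr2 and Ms4a1 then had 0.01, Malt1 0.00, Cd79b and H2-Eb1 -0.02, Ighm 0.07, Igkc 0.11 and Malat1 0.33. Of the 1006 genes in the shortest bin, 64.3% were lower at a median of -0.05, and without the ribosomal protein, respiratory chain and mitochondrial lists 62.9% of 897 were lower at a median of -0.04. Within that bin, 28 of 31 ribosomal protein genes were lower, at a median of -0.10. What else the trends come with, such as RNA integrity or library preparation, was not tested.

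**Figure D5:**
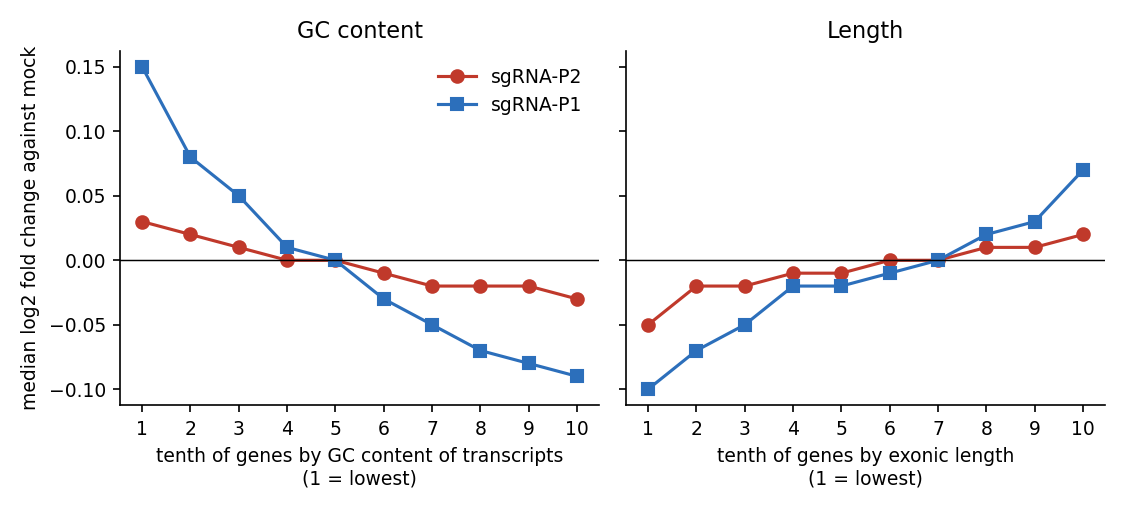
Median log2 fold change against the same mock library in 10 equal bins of genes, ordered by GC content of transcripts (left) and by exonic length (right), for sgRNA-P2 (red circles) and sgRNA-P1 (blue squares). The sgRNA-P2 medians span 0.03 to -0.03 over GC and -0.05 to 0.02 over length, less than those of sgRNA-P1.

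Markers of the labelled cell type were abundant, and other cells left few reads. Cd79a, Cd79b, Ms4a1, Cd22, Ighm and Cd74 stood at 1220 CPM or more in both libraries. The 15 T cell markers summed to 51.4 CPM in mock and 53.1 with sgRNA-P2. Of that sum 46.1 and 46.8 CPM were Lck, which some B cells also express, and Cd3e was at 0.0887 and 0 CPM. The 9 NK cell markers summed to 8.22 and 8.25 CPM, with Gzmb and Eomes at 0 in both. The 16 monocyte and macrophage markers summed to 25.7 and 25.9 CPM with Fcgr1 at 0, and the 9 dendritic cell markers to 29.9 and 26.3 CPM. Neutrophil markers summed to 1.21 and 0.996 CPM with Ly6g, Mpo, Elane and Retnlg at 0, and erythroid markers to 2.75 and 2.24 CPM. Platelet markers summed to 48.7 and 48.6 CPM, nearly all of it Itgb3, with Pf4 and Ppbp at 0. Stromal and endothelial markers summed to 1.77 and 2.84 CPM, with Col1a1 and Pdgfrb at 0. The stromal and endothelial sum was higher with sgRNA-P2 at a level of few reads, and the dendritic cell sum was lower. Of the dendritic cell sum, 20.2 CPM in mock and 18.2 CPM with sgRNA-P2 were Bst2, whose counting interval held 0. The T cell, NK cell, monocyte and platelet sums lay within 1.1-fold of each other in the mock and sgRNA-P2 libraries.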

How the data were processed

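Poly(A) RNA of primary splenic B cells was sequenced. The authors deposited whole-number read counts for 56893 genes. HISAT2 and featureCounts, and the builds hg38 and mm39, are named per the submitters' processing notes. The notes give no version, strand setting or rule for multi-mapping reads. The 2 columns of a group were summed. TMM factors (edgeR 4.0.16, R 4.3.3) over the 5 summed libraries of the series were 1.000 for mock and sgRNA-P2. A prior of 1 read was added for log2 fold changes. Of summed totals under 10 reads, 72.7% in mock and 72% with sgRNA-P2 were odd, and so even once 1 read was added. The added read stands for 1 taken to be lost to rounding when a count was divided between the columns. Even counts arise when both reads of a pair are counted, so exact 95% intervals used reads divided by 2. Read pairing was thus inferred. A gene with no read has a floor of 3 reads, counted singly. The libraries carry no molecular identifiers, so intervals and floors cover counting error only. No test was possible with 1 library per group. The calculation was tested on simulated data. GC content and shared 31-base words came from GENCODE M21 transcripts on GRCm38, and sequences from RefSeq tables on GRCm38.p6. Exon overlaps came from the deposited coordinates. Members and lists were chosen with earlier results of these data known. Named genes are the Oct genes, the 12 highest and 12 lowest log2 fold changes at 5 CPM, the 10 and 10 at 20 CPM (without predicted genes and pseudogenes), up to 8 members per list by size, the members of the receptor, octamer, coenzyme Q and mitochondrial lists, neighbours and markers. Predicted genes, pseudogenes, parents of copies, Hes6, Vsir, Zswim6, Rpl4, Neat1, H2-Eb1, Bcl6, Prdm1, Mki67, Bcl2 and other genes named for their role were chosen after their values were seen. Some members of the lists are not reported here by name.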

Additional observations from a re-analysis of the deposited data

How the results depend on the processing

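No paired analysis was possible because each group is 1 library and the comparison comes from no test. Leaving out 1 column of each group removes reads, not a replicate. The number of genes past 1.5-fold depends on the filter: it was 258 higher and 249 lower at 1 CPM, and 1 higher and 1 lower at 20 CPM. The number of genes whose interval excludes 0 was 292 to 447 when 1 column of each group was left out, and 2033 when reads were counted singly in place of 971, because the interval narrows with the number of reads. Subtracting the GC and length trend moved 2 lists and 14 named genes by more than their spread (the counting interval of a gene, the rank interval of a list's median), and no other setting moved any. The lists were the ribosomal protein genes, to a median of -0.09, and the Zfp genes, to 0.00. No list median shifted by more than 0.04 under it, and that of mitochondrial transcription and genome maintenance went from 0.05 to 0.01. Pou2f1 stayed between -0.87 and -0.85 under every setting tried (4 other scalings, a prior of 5 reads, filters at 1 and 20 CPM, either column alone, the trend and single reads). Much of this was fixed in advance. The filters and single reads leave its fold change as it is, and either column alone is the same library. The scaling factors of the 2 libraries lay between 0.994 and 1.006 in every setting. Of the named genes whose interval excludes 0, 0 changed direction, as did 0 of the lists with a median of 0.05 or more in size. These were 204 genes and 10 lists, but 202 and 9 for the trend and 154 and 8 at 20 CPM. Such small shifts could hardly turn the sign of genes chosen for intervals away from 0. Scalings moved the median of all genes by at most 0.01. Depth limits genes under 10 CPM, where a 1.5-fold difference lies near the edge of the counting interval, and without replicates no difference can be set against the spread between cultures.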
